A study of Homo sapiens with 4 samples.

Results

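The interferon response genes are 38 genes chosen by name: 6 transcription factors of the pathway, STAT2 and the interferon regulatory factors IRF1, IRF2, IRF3, IRF7 and IRF9, and 32 genes known to be induced by interferon, most of them antiviral effectors. They were read from the deposited H3K27ac peak lists of 4 cancer lines: COLO-205 from colon, DU-145 from prostate, and OVCAR-3 and SKOV-3, both from ovary. A gene was called marked in a line when at least 1 peak overlapped the region from 1 kb before to 1 kb after the start of any of its GENCODE transcripts, and a peak was called distal when it overlapped no such region of any protein-coding gene. All 38 genes were found in the annotation, out of 20098 protein-coding genes on chromosomes 1 to 22 and X that were scored the same way. Each line was profiled as an established culture in serum-containing medium, and the labels name no treatment, interferon or other. There is 1 library per line, so the values below have no replicate error, no difference between lines can be tested, and line and library cannot be told apart.

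Interferons bind receptors that signal to STAT proteins through kinases, among them JAK1 and TYK2. STAT2 joins IRF9 in a complex that binds the interferon-stimulated response element (ISRE), a repeat of GAAA units in the promoters of the induced genes, whereas type II interferon acts largely through the gamma-activated sequence (GAS). The induced proteins sense viral RNA, block viral entry, translation and release, or feed back on the pathway, and part of the same programme runs in many tumours without added interferon. H3K27ac is the acetylation of a lysine of histone H3, found at promoters and enhancers in use, so a peak at a start places the mark there but does not measure the transcript.

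The lists hold 85576 peaks in COLO-205 and 75468 in DU-145, with 76093 in OVCAR-3 and 14001 in SKOV-3. ChIP tags recovered from the deposited peak statistics came to about 29800000, 36000000, 34200000 and 22400000 in the same order. SKOV-3 therefore stood apart, with the fewest peaks over all genes, and each result for it is to be read against its own background. The colon markers CDX2, VIL1 and GPA33 were marked in COLO-205 and in no other line, while CDX1 and CDH17 were marked in none. All of PAX8, WT1, MUC16 and MSLN were marked in OVCAR-3, but only PAX8 of them in SKOV-3, and of the prostate luminal genes reported here, KLK3, KLK2 and HOXB13, none was marked in DU-145. PAX8, WT1 and MSLN were also marked in COLO-205, as were KLK3 and KLK2. PAX8, MUC16 and MSLN were marked in DU-145 too, and HOXB13 in OVCAR-3, so those lists do not separate the lines. KRT8 and KRT18 were marked in all 4 lines, EPCAM in all but SKOV-3, and COL1A1, the single fibroblast gene of 3 with a mark, in all but SKOV-3. Of 4 leukocyte genes CD14 in DU-145 was the single one marked. Of 415 olfactory receptor genes, taken as a floor, 14 were marked in COLO-205 and 5 in DU-145, with 2 in SKOV-3 and 3 in OVCAR-3.

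At any start, between 9 and 23 of the interferon response genes were marked, depending on the line, and each share is given beside that of all protein-coding genes. The differences between the shares were not tested, and they moved with the starts and the number of peaks used. In COLO-205 19 of the 38 were marked, where the share of all protein-coding genes was 51.3%. In DU-145 23 were marked, 60.5% beside 60.0%. In OVCAR-3 18 were marked, 47.4% beside 60.6%, and in SKOV-3 9 were marked, 23.7% beside 31.7%. These shares are descriptions of 4 libraries. The genes have a median of 9.5 annotated starts and protein-coding genes a median of 5, which gives a member more windows in which a peak can fall. With the main start alone, that of the Ensembl canonical transcript, 14 genes were marked in COLO-205 (36.8%, all genes 44.8%) and 22 in DU-145 (57.9%, all genes 56.2%), with 16 in OVCAR-3 (42.1%, all genes 56.8%) and 8 in SKOV-3 (21.1%, all genes 29.1%). Limiting each list to its 14001 strongest peaks, the number in SKOV-3, left 6 members marked in COLO-205 (all genes 21.9%), 11 in DU-145 (all genes 37.9%), 10 in OVCAR-3 (7645 of all 20098 genes) and 9 in SKOV-3, so the low count of SKOV-3 did not hold at equal peak numbers. At the main start DU-145 was the line in which the share of the interferon response genes was not below that of all genes.

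**Figure D1:**
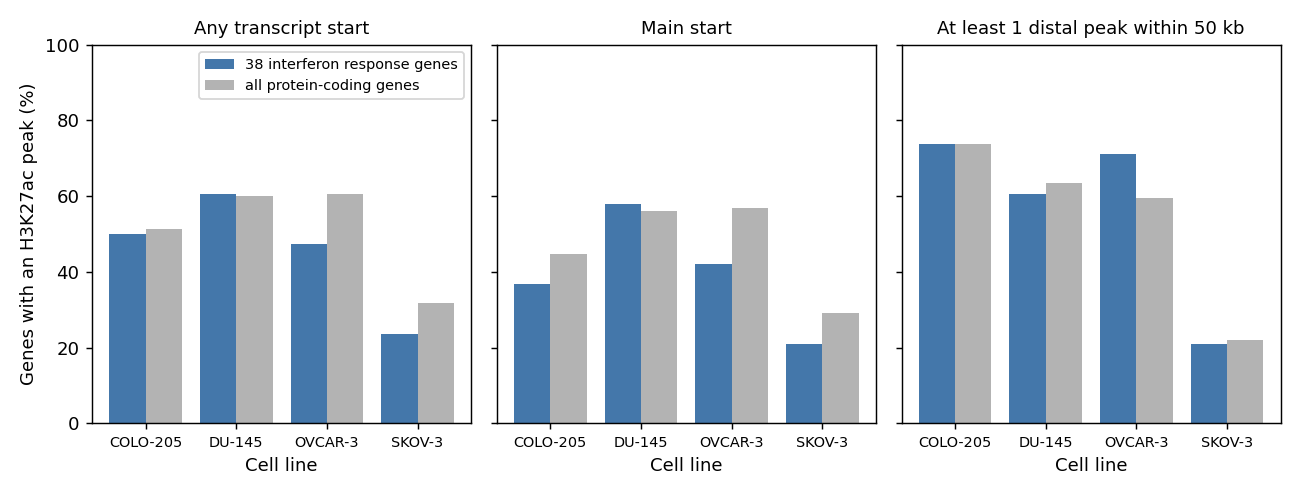
Percent of the 38 interferon response genes (blue bars) and of all protein-coding genes (grey bars) with an H3K27ac peak at any transcript start, at the main start, or with at least 1 distal peak within 50 kb, in each of the 4 lines (1 library each). In OVCAR-3 the blue bar is at 47.4% and the grey bar at 60.6% for any start, while for distal peaks they are at 71.1% and 59.4%.

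At any start and with the full lists, the sets marked in SKOV-3, OVCAR-3 and DU-145 were nested, and the COLO-205 set was not part of that order. At the main start IFIT3 was marked in OVCAR-3 and not in DU-145. With each list limited to its 14001 strongest peaks, OVCAR-3 had IRF2, IFIT5, PARP9 and DTX3L that DU-145 lacked, and SKOV-3 had IFIH1, IFITM3 and IFI35 that OVCAR-3 lacked, so the order did not hold there. With the full lists, every one of the 9 genes marked in SKOV-3 was marked in the other 3 lines as well, and every one of the 18 marked in OVCAR-3 was marked in DU-145. Over all protein-coding genes, of those marked in SKOV-3 95.4% were marked in OVCAR-3, 94.8% in DU-145 and 84.3% in COLO-205, and of those marked in OVCAR-3 85.9% were marked in DU-145. Of the 23 genes marked in DU-145, 17 were marked in COLO-205 (73.9%, all genes 69.0%) and 18 in OVCAR-3 (78.3%, all genes 86.8%). Of the 19 marked in COLO-205, 17 were marked in DU-145 (89.5%, all genes 80.7%) and 14 in OVCAR-3 (73.7%, all genes 81.3%). The 9 genes marked in all 4 lines, 23.7% of the members beside 25.2% of all protein-coding genes, were IRF1, IRF2, IRF7, IFIH1, IFITM3, ISG15, PARP9, DTX3L and IFI35. With peaks that also overlap another gene's start window left out, 5 members were marked in all 4 lines. The share of all genes was not taken for that count, so the fall has no background beside it. The 13 marked in no line, 34.2% of the members beside 24.8% of all genes, were IFIT1, IFIT2, OAS1, OAS2, GBP1, GBP2, IFITM2, SAMD9, SAMD9L, IFI44, IFI44L, RSAD2 and XAF1. STAT2, IFIT5, MX1, MX2 and USP18 lacked the mark in SKOV-3 alone, a pattern held by 13.0% of all genes. IRF3, IRF9, DDX58 and IFIT3 were marked in DU-145 and OVCAR-3 only, a pattern held by 10% of all genes. OAS3, OASL and IFI27 were marked in COLO-205 and DU-145 only (all genes 2.62%). IFI6 and ISG20 were marked in DU-145 alone (all genes 4.34%), and IFITM1 and BST2 in COLO-205 alone (all genes 6.18%). Marked in 1 line were 10.5% of the members beside 15.4% of all genes, and in 2 lines 18.4% beside 16.5%. No difference between these shares was tested.

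**Figure D2:**
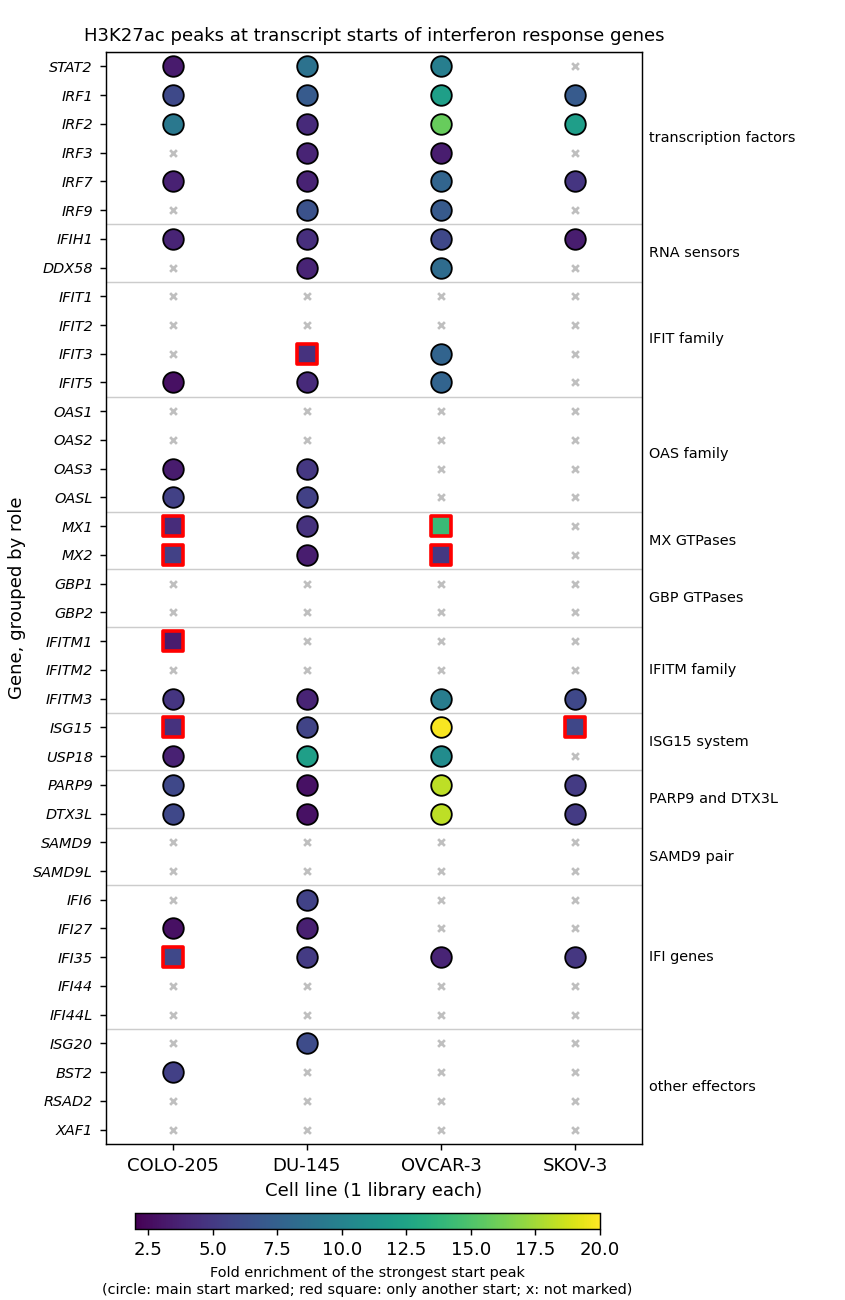
Each of the 38 genes (rows, grouped by role) in each line (columns, 1 library each), with the colour giving the fold enrichment of the strongest peak at any of its starts, as the authors' peak caller computed it. Circles have the main start marked, red squares have another start marked but not the main one, and crosses have no start marked. The 13 rows of crosses are the genes marked in no line, and the highest value, 19.8, is ISG15 in OVCAR-3.

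The promoters of these genes were searched for the sequences that the pathway's factors bind. In the 300 bases from 250 before the main start to 50 from it onward, 22 of the 38 genes (57.9%) held the ISRE core GAAANNGAAA on either strand, beside 3.32% of all 20098 protein-coding promoters of this length. The longer form GAAANNGAAACT, which contains the core, was in 15 of them (39.5%, all promoters 0.304%), and the GAS motif TTCNNNGAA, which reads the same on both strands, in 9 (23.7%, all promoters 6.49%). None of the 6 transcription factors held the core, whereas all 4 IFIT genes did, and 4 of the 6 transcription factors, IRF1, IRF2, IRF7 and IRF9, held the GAS motif. These genes were listed because interferon induces them, so the share with an ISRE describes the list and is not a finding of the libraries. The 5 promoters shown belong to holders of the core that were marked in some lines and not in others. They are the first of each marking pattern in list order. All are hg19, written 5′ to 3′ along the strand of the gene, with matches to the core in capitals. TTTC at the start of a capital run means that the match is on the opposite strand.
IFIT3, chr10:91087504-91087803, plus strand: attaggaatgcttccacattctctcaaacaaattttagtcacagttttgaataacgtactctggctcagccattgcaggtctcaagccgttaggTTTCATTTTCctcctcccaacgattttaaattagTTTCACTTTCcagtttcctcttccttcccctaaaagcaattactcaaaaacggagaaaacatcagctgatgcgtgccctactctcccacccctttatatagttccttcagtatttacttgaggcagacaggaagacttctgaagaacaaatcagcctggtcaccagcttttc
IFIT5, chr10:91174075-91174374, plus strand: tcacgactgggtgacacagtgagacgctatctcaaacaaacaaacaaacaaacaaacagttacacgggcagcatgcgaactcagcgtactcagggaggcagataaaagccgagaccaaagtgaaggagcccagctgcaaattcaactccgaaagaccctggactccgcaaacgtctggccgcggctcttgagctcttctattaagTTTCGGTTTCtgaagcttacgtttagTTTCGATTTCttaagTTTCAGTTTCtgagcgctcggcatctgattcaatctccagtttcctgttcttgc
OAS3, chr12:113376029-113376328, plus strand: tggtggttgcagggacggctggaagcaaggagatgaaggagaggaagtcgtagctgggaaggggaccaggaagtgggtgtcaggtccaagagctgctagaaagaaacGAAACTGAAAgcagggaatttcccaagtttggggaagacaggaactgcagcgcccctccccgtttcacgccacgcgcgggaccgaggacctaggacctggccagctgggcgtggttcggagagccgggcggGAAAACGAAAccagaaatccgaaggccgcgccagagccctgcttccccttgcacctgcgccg
IFITM1, chr11:313790-314089, plus strand: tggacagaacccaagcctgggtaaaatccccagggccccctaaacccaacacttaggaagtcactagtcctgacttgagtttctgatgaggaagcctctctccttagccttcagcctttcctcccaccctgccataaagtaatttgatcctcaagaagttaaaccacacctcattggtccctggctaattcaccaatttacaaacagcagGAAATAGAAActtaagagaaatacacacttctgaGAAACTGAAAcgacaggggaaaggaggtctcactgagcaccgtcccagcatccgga
IFI6, chr1:27998654-27998953, minus strand: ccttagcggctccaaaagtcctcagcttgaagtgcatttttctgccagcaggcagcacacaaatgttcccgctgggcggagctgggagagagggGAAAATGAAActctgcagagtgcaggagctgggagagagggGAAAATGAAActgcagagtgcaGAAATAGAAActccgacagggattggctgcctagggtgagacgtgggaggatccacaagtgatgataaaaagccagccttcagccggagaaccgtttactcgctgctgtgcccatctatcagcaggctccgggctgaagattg

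The IFI6 promoter holds 3 matches, beginning 156, 115 and 93 bases before the main start. IFIT5 holds 3 between 45 and 4 bases before its start. IFIT3 holds matches at 156 and 122 bases before, OAS3 at 143 and 12 bases before, and IFITM1 at 40 and 6 bases before. Of the 22 genes with the core, 11 were marked in COLO-205 and 12 in DU-145, with 8 in OVCAR-3 and 5 in SKOV-3. Of the 16 without it, 8, 11, 10 and 4 were marked in the same order. Over all protein-coding genes, any start was marked in 38.3%, 45.5%, 49.4% and 24.9% of holders in that order. Of the rest it was marked in 51.7%, 60.5%, 61.0% and 31.9%. At the main start, where the motif was searched, 9 of the 22 holders were marked in COLO-205 (40.9%) beside 5 of the other 16 members (31.2%). In DU-145 it was 11 beside 11 of the others (68.8%), in OVCAR-3 8 (36.4%) beside 8, and in SKOV-3 4 (18.2%) beside 4 (25.0%). Over all protein-coding genes, the main start was marked in 31.1% of holders and 45.3% of the rest in COLO-205, 41.5% and 56.7% in DU-145, 21.3% and 29.4% in SKOV-3, and 44.6% and 57.2% in OVCAR-3. None of these differences was tested. The 13 genes marked in no line include 8 with the core: IFIT1, IFIT2, OAS2, GBP1, SAMD9, IFI44, IFI44L and RSAD2. In the holders whose main start was marked, at least 1 match began under the strongest peak there in 2 of 9 genes in COLO-205, 5 of 11 in DU-145, 5 of 8 in OVCAR-3 and 2 of 4 in SKOV-3. PARP9 and DTX3L, which share 1 peak and 1 match, are among them in DU-145 and OVCAR-3. In SKOV-3 they are the only 2.

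Among the transcription factors, all 6 were marked in DU-145 (all genes 60.0%) and in OVCAR-3 (all genes 60.6%), 4 in COLO-205 (all genes 51.3%) and 3 in SKOV-3 (all genes 31.7%). Values that follow are for the strongest peak at any start: its fold enrichment over the local background, its −log10 q as the authors' caller gave it, and where useful the pileup, which is the number of ChIP tags over the summit. The caller computed these within a library, so a fold enrichment is set beside those of the marked protein-coding genes of its own line, as a percentile, before lines are read side by side. The medians over all marked genes were 4.52 in COLO-205 and 4.77 in DU-145, with 5.29 in SKOV-3 and 7.45 in OVCAR-3.

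STAT2, which carries the activation domain of the ISRE-binding complex, had a fold enrichment of 3.30 in COLO-205 (−log10 q 5.47), 8.78 in DU-145 (48.3) and 9.63 in OVCAR-3 (42.2), and no peak at a start in SKOV-3. Its percentile among marked genes was 11.4 in COLO-205, 95.8 in DU-145 and 68.4 in OVCAR-3. STAT2 was therefore near the bottom of the marked genes in COLO-205 and near the top in DU-145, with summits between 531 and 644 bp upstream of the main start in all 3 lines. In DU-145 10.9% of the 1 Mb around STAT2 lay under peaks, which is dense for this line. The COLO-205 peak rests on 25 tags, with an exact Poisson 95% interval of 16.2 to 36.9 for counting error only.

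IRF1, an activator induced by type II interferon and a tumour suppressor, was marked in every line. Its strongest peak had a fold enrichment of 5.97 in COLO-205 and 7.10 in DU-145, with 12.1 in OVCAR-3 and 7.13 in SKOV-3, at percentiles of 80.5 to 87.7. That peak had its summit 5260 to 5956 bp upstream of the main start, near another annotated start. At the main start the fold enrichment was 4.86, 6.82, 8.83 and 6.56 in the same order, so the gene was marked in every line by that reading too. IRF1 was the member with the most even rank across the lines among the transcription factors marked in all 4.

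IRF2, which opposes IRF1 at many of the same sites, had fold enrichments of 9.18 in COLO-205 and 4.11 in DU-145, with 15.8 in OVCAR-3 and 12.0 in SKOV-3. Its percentiles were 97.8, 32.3, 91.8 and 98.5, which puts DU-145 apart from the other lines. The summits lay 1116 to 1255 bp downstream of the main start, in an intron, and the peaks were 892 to 1680 bp wide. IRF7, the amplifier of type I interferon production, had 3.66 in COLO-205 and 3.70 in DU-145, with 7.83 in OVCAR-3 and 4.78 in SKOV-3. Its percentiles were between 20.9 and 53.7, so it was marked everywhere but was not among the strongest starts in any line.

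IRF3, the factor that viral sensors activate to start interferon transcription, was marked in DU-145 (3.82) and OVCAR-3 (3.46), at percentiles of 24.2 and 4.37. Its start region is shared with BCL2L12, and the peak cannot be given to either gene. IRF9, the DNA-binding subunit of the ISRE-binding complex, had a fold enrichment of 6.52 in DU-145 and 7.04 in OVCAR-3, at percentiles of 82.7 and 46.1, with no peak at a start in COLO-205 or SKOV-3. STAT2 and IRF9 were thus both marked in DU-145 and OVCAR-3, STAT2 without IRF9 in COLO-205, and neither in SKOV-3.

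The RNA sensors IFIH1 (MDA5) and DDX58 (RIG-I) detect long and short viral RNA. IFIH1 was marked in all 4 lines with fold enrichments of 3.45 to 5.89, at a start shared with GCA. DDX58 was marked in DU-145 (fold enrichment 3.79, −log10 q 8.78) and OVCAR-3 (8.30, 24.7), and not in COLO-205 or SKOV-3.

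The IFIT proteins bind viral RNA and block its translation, and their genes lie within 138 kb on chromosome 10. IFIT1 and IFIT2 were marked in no line. IFIT3 had a fold enrichment of 7.74 in OVCAR-3, 604 bp upstream of its main start, and 4.57 in DU-145, where the peak was 9615 bp downstream and the main start was not marked. IFIT5 had 2.76 in COLO-205, 4.11 in DU-145 and 7.72 in OVCAR-3, at a start shared with LIPA. The cluster was thus partly marked in 3 lines, and no peak fell at any of its starts in SKOV-3.

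The oligoadenylate synthetases make the messenger that activates RNase L. OAS1, OAS2 and OAS3 stand within 106 kb on chromosome 12, and OAS3 was the single one of them with a mark, with a fold enrichment of 3.39 in COLO-205 (50 tags, summit 146 bp downstream of the main start) and 4.90 in DU-145 (30 tags, 987 bp downstream). OASL, a related protein that enhances RIG-I signalling, had 5.50 in COLO-205 and 5.48 in DU-145. The COLO-205 value belongs to a peak 14159 bp downstream of the main start, and the peak at the main start had 2.79. No OAS gene was marked in OVCAR-3 or SKOV-3, the 2 ovarian lines.

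MX1 and MX2 are dynamin-like GTPases that block viral capsids inside the cell, and both were marked in every line but SKOV-3. MX1 had a fold enrichment of 4.19 in COLO-205, 4.60 in DU-145 and 14.2 in OVCAR-3, the last on 107 tags. The OVCAR-3 peak, chr21:42791874-42792898, was 1025 bp wide with its summit 5465 bp upstream of the main start, and the strongest DU-145 peak was 5514 bp upstream, so in both lines an upstream start of MX1 carried the stronger mark. At the MX1 main start there was a peak in DU-145 (3.62) and in no other line. MX2 had 5.45 in COLO-205, 3.45 in DU-145 and 4.90 in OVCAR-3, but the COLO-205 and OVCAR-3 peaks lay 36994 and 37946 bp downstream of its main start, inside the gene, and the main start was marked in DU-145 alone. The guanylate-binding proteins GBP1 and GBP2, which respond to type II interferon, were marked in no line.

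The IFITM proteins block virus entry at membranes, and their 3 genes lie within 25.8 kb on chromosome 11. IFITM3 was marked in all 4 lines, with fold enrichments of 3.79 to 9.59, and IFITM2 in none. IFITM1 was marked in COLO-205 (fold enrichment 3.40, −log10 q 4.38, 18 tags), by a peak that overlaps the 3′ end of the gene, with the summit 1263 bp downstream of the main start and past that end. The mark in this cluster was therefore that of IFITM3 in DU-145, OVCAR-3 and SKOV-3. Paralogs in this cluster and in the IFIT and OAS clusters are alike in sequence, and how reads matching several of them were handled is not given in the sources used here.

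ISG15, the ubiquitin-like modifier, and USP18, the protease that removes it and dampens the receptor, had the highest fold enrichment of all members in OVCAR-3 and in DU-145, respectively. ISG15 had 4.60 in COLO-205 and 5.61 in DU-145, with 19.8 in OVCAR-3 and 5.83 in SKOV-3. In each line this peak lay 12892 to 13143 bp upstream of the main start, at an annotated start of ISG15 that adjoins the start of HES4, and it cannot be given to either gene. In OVCAR-3 it spans chr1:933675-937683, in a stretch where 17.4% of the surrounding 1 Mb lay under peaks. At the main start ISG15 had a peak in DU-145 (3.78) and OVCAR-3 (5.24), and none in COLO-205 or SKOV-3. USP18 had 3.68 in COLO-205, 12.1 in DU-145 and 10.7 in OVCAR-3, with percentiles of 22.1, 99.1 and 75.0. Its summits lay 15, 147 and 124 bp upstream of the main start in the same order. The USP18 region of DU-145 stood in a stretch dense in peaks: 24.2% of the surrounding 1 Mb lay under peaks there, where the median over all genes was 1.68%. The part of that density in the USP18 value was not tested. USP41, a related pseudogene, is annotated on the same chromosome, and whether reads of the peak could map to both was not tested.

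PARP9 and DTX3L, a member of the ADP-ribosyltransferase family and its ubiquitin ligase partner, are transcribed away from each other from 1 shared start region. They share 1 promoter but are counted as 2 members in the counts of marked genes. The strongest peak of this promoter had a fold enrichment of 5.93 in COLO-205 and 2.84 in DU-145, with 18.2 in OVCAR-3 and 5.14 in SKOV-3. It rested on 78, 58, 310 and 54 tags in the same order. The OVCAR-3 peak spans chr3:122282340-122283800. The percentiles were 81.2, 3.89, 95.5 and 46.8, so this promoter was among the weakest marked starts in DU-145 and among the strongest in OVCAR-3. In OVCAR-3 16.3% of the 1 Mb around PARP9 lay under peaks, beside a median of 1.27% over all genes, and the part of that in the value was not tested. The antiviral pair SAMD9 and SAMD9L was marked in no line.

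Of the IFI genes, IFI44 and IFI44L were marked in no line and IFI35, a partner of other interferon-induced proteins, in all 4, with fold enrichments of 3.79 to 5.91. The main start of IFI35 was not marked in COLO-205, where the peak was 5419 bp downstream. IFI6, a mitochondrial and endoplasmic reticulum protein that protects cells against flavivirus replication, was marked in DU-145 alone, with 5.52 on 33 tags, with the summit 143 bp downstream of the start and at least 1 of its 3 ISRE matches under the peak. IFI27 had 2.72 in COLO-205 and 3.56 in DU-145, at percentiles of 1.73 and 17.2, the first of them near the bottom of the marked genes of its line.

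The remaining effectors were marked in 1 line or none. ISG20, an RNA exonuclease, had a fold enrichment of 6.13 in DU-145 on 71 tags, with 4 peaks over its starts and the summit of the strongest 564 bp upstream of the main start. BST2 (tetherin), which holds budding virions at the cell surface, had 5.42 in COLO-205 on 35 tags, 364 bp upstream, at a start shared with MVB12A. RSAD2 (viperin) and XAF1, an antagonist of an apoptosis inhibitor, were marked in no line.

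The size of the mark at marked members lay near the median of all marked genes in 3 lines and above it in OVCAR-3. The median fold enrichment of the marked members was 4.60 in COLO-205 and 4.57 in DU-145, with 8.95 in OVCAR-3 and 5.14 in SKOV-3, and the median percentile was 52.4, 45.2, 63.2 and 46.8. In OVCAR-3 13 of the 18 lay above the median of all marked genes and 4 in the top 10%. These 4 were ISG15, PARP9, DTX3L and IRF2, and all but IRF2 share their starts with each other or with HES4. Bases under peaks in the 5 kb on either side of the main start had a median of 373 bp over the marked members in COLO-205 and 781 bp in DU-145, with 378 bp in SKOV-3 and 889 bp in OVCAR-3. USP18 in DU-145 had 4600 bp, and PARP9 and DTX3L in OVCAR-3 had 3619 bp. In these bulk libraries, fewer cells with the mark and less acetylation per cell cannot be told apart.

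SKOV-3 had the shallowest library, so the peaks of the other lines were set on its depth. Scaled to the SKOV-3 tag number, with pileup and background reduced in proportion, 13 of the 14 members marked in DU-145 and not in SKOV-3 would still pass the peak threshold, all but MX2. For COLO-205 7 of 10 would pass, all but IFIT5, IFITM1 and IFI27, and for OVCAR-3 9 of 9. The members scaled were picked because they passed in the other line, and the scaling adds no counting error. The tag totals behind this scaling are estimates, and the part of depth or of enrichment in the SKOV-3 counts was not tested.

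Distal peaks within 50 kb of the gene bodies gave another order of the lines. At least 1 was found for 28 members in COLO-205 (73.7%, all protein-coding genes 73.8%) and 23 in DU-145 (60.5%, all genes 63.6%), with 27 in OVCAR-3 (71.1%, all genes 59.4%) and 8 in SKOV-3 (21.1%, all genes 21.9%). Counted once each, the distal peaks numbered 129 in COLO-205 and 88 in DU-145, with 172 in OVCAR-3 and 9 in SKOV-3. Of the 172 in OVCAR-3, 119 lay near ISG15, PARP9 and DTX3L, in stretches where over 10% of the surrounding 1 Mb was under peaks, and 53 remained near the other members. PARP9 alone had 82 in OVCAR-3, beside 8 in COLO-205 and 0 in DU-145 and SKOV-3, and DTX3L 63 beside 6, 0 and 0, with many peaks shared by both. In DU-145 21 of the 88 lay near USP18, which had 2 in OVCAR-3, 1 in COLO-205 and 0 in SKOV-3.

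Outside such stretches, the members with 10 or more distal peaks were OASL with 17, IRF1 and IRF7 with 16 each, IFITM3 with 11 and IFITM2 and IRF2 with 10 each in COLO-205, IFI27 and IFI35 with 13 each in DU-145, and IRF1 with 14 and MX1 with 10 in OVCAR-3. IRF1 had 16 in COLO-205, 14 in OVCAR-3, 8 in DU-145 and 1 in SKOV-3, so it had distal peaks in every line. The same held for IRF7, IFITM1, IFITM2, IFITM3, ISG15 and IFI27. The strongest distal peak near any member was at IRF1 in OVCAR-3, chr5:131781306-131782081 (hg19), with a fold enrichment of 22.7 and 87 tags, 44858 bp downstream of the main start and within the annotated bounds of the gene. In SKOV-3 the strongest was chr11:355174-356039, with 9.75 and 78 tags, within 50 kb of all 3 IFITM genes and 25699 bp from the nearest of them. A distal peak near a gene is not shown to act on it. Of the distal peaks near members, 28.7% overlapped a peak of another line in COLO-205, as did 27.3% in DU-145, 20.9% in OVCAR-3 and 8 of 9 in SKOV-3, beside 15.9%, 25.8%, 28.6% and 65.8% of all distal peaks.

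**Figure D3:**
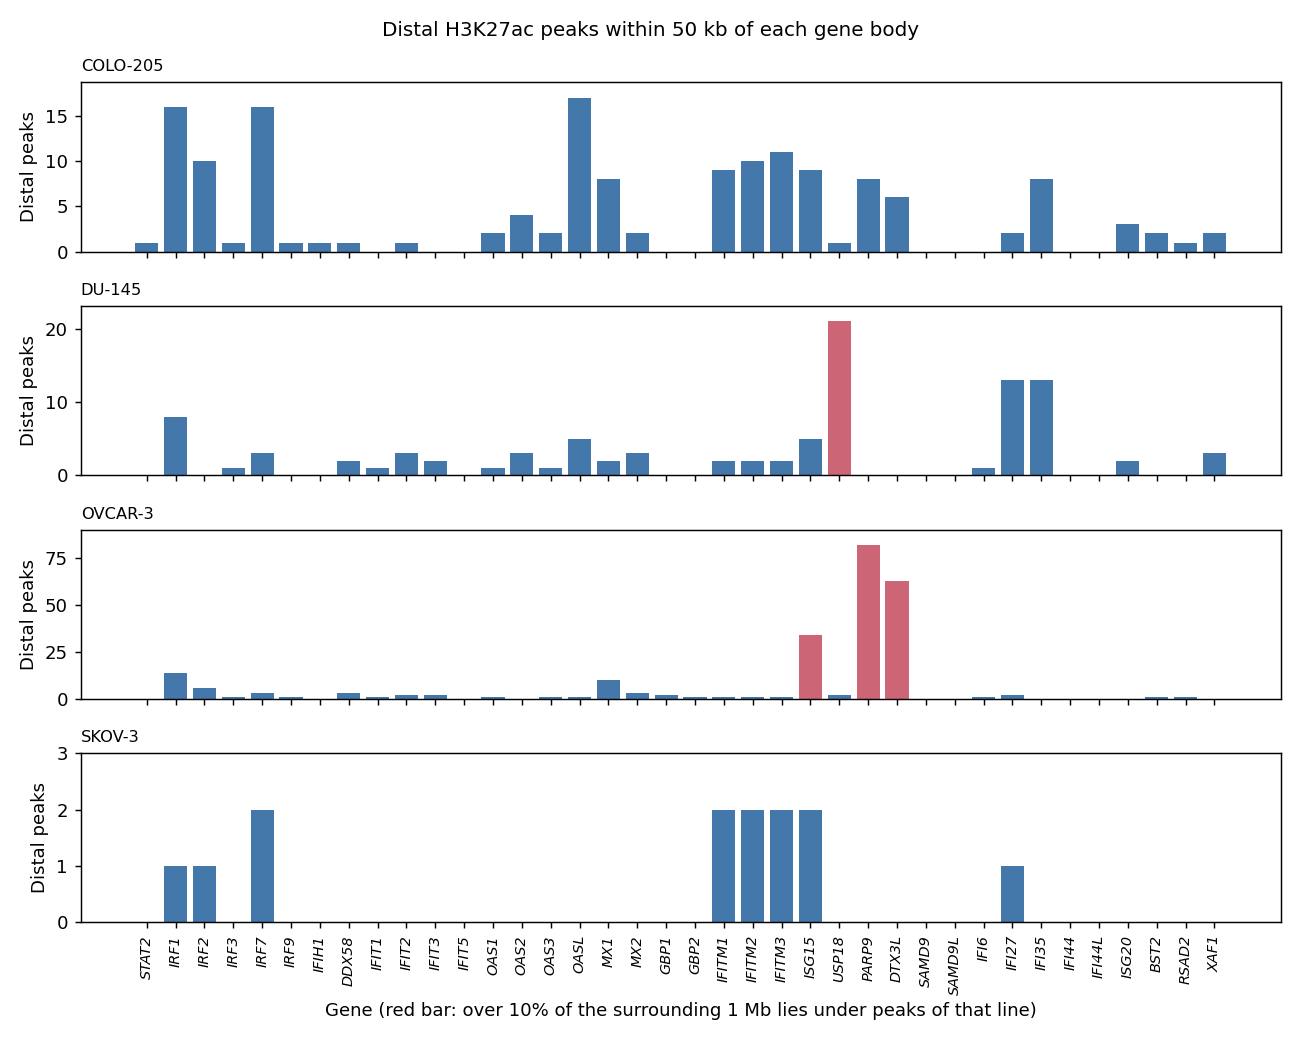
Number of distal H3K27ac peaks within 50 kb of each gene body, for the 38 genes (bars) in each of the 4 lines (panels with their own vertical scales). Red bars are genes with over 10% of the surrounding 1 Mb under peaks of that line: USP18 with 21 in DU-145, and ISG15 with 34, PARP9 with 82 and DTX3L with 63 in OVCAR-3.

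Not every unmarked gene was remote from acetylated chromatin. Of the 13 genes marked in no line, 6 had a distal peak in COLO-205 and 6 in DU-145, with 7 in OVCAR-3 and 1 in SKOV-3, that 1 being IFITM2. The nearest peak to their main starts was at a median of 36.6 kb in COLO-205, 39.7 kb in DU-145, 39.6 kb in OVCAR-3 and 1438 kb in SKOV-3. GBP2 in OVCAR-3 came closest, with a peak 1.85 kb from its main start. IFI44, IFI44L, SAMD9 and SAMD9L had neither a start peak nor a distal peak within 50 kb in any line. IFI44 was 604 kb from the nearest peak in COLO-205.

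The median GC content of the promoters was lower in the genes marked in no line than in those marked in all 4, both for the members and over all protein-coding genes. Over the 300-base promoters it was 43.3% in the 13 members marked in no line, of which OAS2 (53.3%), XAF1 (57.0%) and IFITM2 (59.7%) lay above 50%, and 64.0% in the 9 marked in all 4, where over all protein-coding genes it was 51.7% in those marked in no line and 68.3% in those marked in all 4. Over all 38 members the median was 54.3%, beside 63.7% for all protein-coding genes. Among the 24 members with a GC content of 50% or more, 16 were marked in COLO-205 (66.7%, all such genes 58.0%) and 20 in DU-145 (83.3%, all such genes 68.1%), with 16 in OVCAR-3 (66.7%, all such genes 68.5%) and 9 in SKOV-3 (37.5%, all such genes 36.3%). Among the 14 below 50%, 3, 3, 2 and 0 were marked in the same order, 21.4%, 21.4%, 14.3% and 0%, beside 16.7%, 18.7%, 20.4% and 8.08% of all such genes. At the higher GC content the shares of members and of all genes lay close together in OVCAR-3 and SKOV-3. Whether GC content has a part in the marking was not tested.

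**Figure D4:**
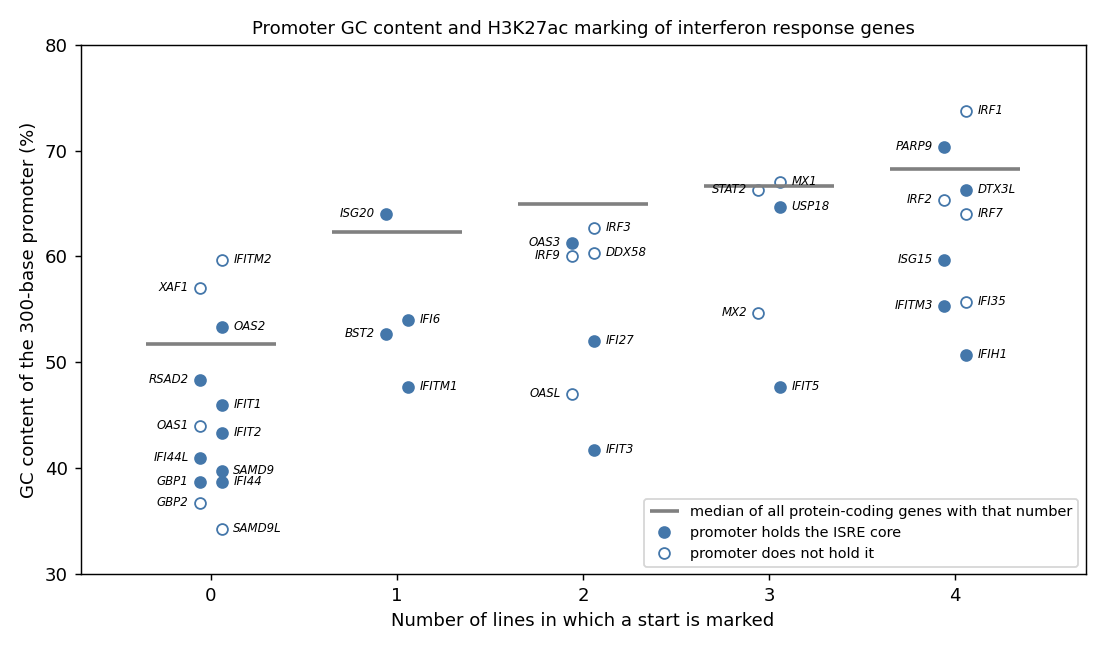
GC content of the 300-base promoter (vertical axis, percent) of each of the 38 genes, by the number of lines in which a start was marked (horizontal axis). Filled points hold the ISRE core, open points do not, and grey lines are the medians of all protein-coding genes with that number of lines. The points at 0 lines have a median of 43.3%, and those at 4 lines a median of 64.0%.

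Of 30 genes that act before the response, 17 were marked in COLO-205 (56.7%, all genes 51.3%), 20 in DU-145 (66.7%, all genes 60.0%), 11 in SKOV-3 (36.7%, all genes 31.7%) and 21 in OVCAR-3 (70.0%, all genes 60.6%). No difference from all genes or from the response genes was tested. Without the 9 interferon genes among them, there are 21 receptors, kinases, negative regulators, sensors and adaptors, of which 17 were marked in COLO-205 (81.0%) and 20 in DU-145 (95.2%), with 11 in SKOV-3 (52.4%) and 18 in OVCAR-3 (85.7%). The receptor chains IFNAR2, IFNGR1 and IFNGR2, the kinase JAK1, the negative regulators SOCS3, PIAS1 and USP25, and the sensor and adaptor genes MAVS, TBK1 and DHX58 were marked in all 4 lines. IFNLR1, the specific chain of the type III receptor, was marked in DU-145 alone, with a fold enrichment of 2.82, and SOCS1 in every line but COLO-205, with 5.90 in OVCAR-3, 4.58 in SKOV-3 and 4.11 in DU-145. TLR3 was the single gene of the 21 marked in no line.

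Of 9 interferon genes, none was marked in COLO-205, DU-145 or SKOV-3. In OVCAR-3 the type III interferon genes IFNL1, IFNL2 and IFNL3 on chromosome 19 were marked, with fold enrichments of 8.05, 7.05 and 6.60. Of the 1 Mb around IFNL1, 62.6% lay under OVCAR-3 peaks. IFNL2 and IFNL3 are near-identical neighbours, so reads may be split between them, and how the authors placed such reads is not given in the sources used here. IFNB1, IFNA1, IFNA2, IFNG, IFNK and IFNE were marked in no line.

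The antigen presentation genes of HLA class I, which interferon also induces, were scored the same way. All 15 were marked in DU-145 (all genes 60.0%), 11 in OVCAR-3 (73.3%, all genes 60.6%), 11 in SKOV-3 (73.3%, all genes 31.7%) and 8 in COLO-205 (53.3%, all genes 51.3%). In SKOV-3, where 23.7% of the interferon response genes were marked, 73.3% of these were, and the 4 without a mark were HLA-F, TAP1, NLRC5 and ERAP2. HLA-B, HLA-C, HLA-E, B2M, TAPBP, PSMB10 and ERAP1 were marked in all 4 lines. The difference between the lists was not tested.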

How the data were processed

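H3K27ac was profiled by ChIP-seq in 1 library for each of 4 lines, and the narrowPeak lists were used here. Per the study's methods and the submitters' processing notes, the authors mapped reads to hg19 with Bowtie2 2.1.0 and called peaks per library with MACS2 2.1.0.20150603 at a q-value below 0.001. The deposited columns hold a score, the fold enrichment over the local background (a ratio), −log10 p and −log10 q of each peak, and the summit offset. They are computed within a library and are not scaled between libraries. A merging of peaks closer than 350 bp is described in the methods but not seen in these lists, and peaks were used unmerged. Whether the caller was given a control is not given in the sources used here.

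Genes, starts and bodies came from GENCODE 44 lifted to GRCh37, the build of the lists, in which DDX58 is named RIGI, and promoter sequence from the GRCh37 assembly. Start windows ran 1 kb either side, distal distances to 50 kb, and an overlap of 1 bp counted. Pileups were recovered as the whole number that gives the listed Poisson −log10 p to within 0.001, which solved 99.9% to 100% of peaks per list. Tag totals, which are estimates, came from the smallest peak width, the lowest background and 2700000000 genome positions. A percentile is a gene's place among the marked protein-coding genes of its line. Marking and pileup recovery were tested on simulated data. Results for 2 prostate marker genes and 1 promoter sequence are not reported here. No test was run, since there is 1 library per line. The alternatives were stricter q-values, equal numbers of peaks, other windows, starts and overlaps, merged or unshared peaks, other distal distances and other motif windows. All 38 genes are named, with values per line for the transcription factors and for genes marked in 1 to 3 lines. Genes of other lists are named where the count is 5 or fewer, and the others that the text names there were chosen after their values were seen. The genes and lists were chosen with earlier results of these data known. Python 3.11.15, numpy 2.4.6, pandas 2.3.3, scipy 1.17.1 and matplotlib 3.10.9 were used.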

Additional observations from a re-analysis of the deposited data

How the results depend on the processing

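Across the alternatives, 147 of 171 recomputed values stayed within the tolerance and 24 moved beyond it. The tolerance was 1.5 times for counts and medians, and the 95% Clopper-Pearson interval for shares. None was a reversal beyond the interval. That interval counts the member genes as independent draws and is wide for a list of this size. Every recomputed difference in shares fell within it. This includes the change in DU-145 from 0.5 to -9.1 percentage points at a −log10 q of at least 10. The lack of a reversal among the shares therefore cannot show that they are stable. The share of members minus that of all genes stayed negative in all 13 settings for COLO-205 (-8.2 to -0.5 percentage points), OVCAR-3 (-14.7 to -7.2) and SKOV-3 (-9.0 to -1.2), and ran from -9.1 to 2.7 in DU-145, where 3 settings were negative. With each list limited to its 14001 strongest peaks, the members marked came to 6 in COLO-205, 11 in DU-145 and 10 in OVCAR-3 beside 9 in SKOV-3, with 2 marked in all 4 lines and 20 in none, and distal peaks to 10 in COLO-205, 5 in DU-145 and 14 in OVCAR-3. Of all genes, the limited lists marked 21.9% in COLO-205 and 37.9% in DU-145. They marked 7645 of 20098 in OVCAR-3, while SKOV-3 kept its full list and 31.7%. The weakest peak kept had a −log10 q of 13.8 in COLO-205 and 30.3 in OVCAR-3, so the cut-offs differed. SKOV-3 was thus not the line with the fewest members marked, and COLO-205 was lowest both for all genes and for members. With a −log10 q of at least 10, 11 were marked in COLO-205 and 3 in all 4 lines, and distal peaks numbered 26 in COLO-205, 113 in OVCAR-3, 31 in DU-145 and 5 in SKOV-3. Without peaks shared with another gene, 5 were marked in all 4 lines. For the counts over all 4 lines in these settings, the share of all genes was not taken. Distal peaks within 20 kb numbered 73 in COLO-205, 99 in OVCAR-3, 45 in DU-145 and 4 in SKOV-3, and within 100 kb 235, 285, 186 and 18 in that order. Without members in dense stretches, a setting chosen after seeing the data as was the main start alone, 53 remained in OVCAR-3. No paired analysis was possible because each line has a single library.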
